A study of Mus musculus with 6 samples.

Results

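The genes described are 8 of the mouse oligoadenylate synthetase family (Oas1a, Oas1b, Oas1c, Oas1g, Oas2, Oas3, Oasl1 and Oasl2) and Eif2ak2, which encodes the kinase PKR: 9 of the 53715 genes in the count table, and all 9 among the 16721 genes tested. They were chosen by name, with their differences between the groups of these libraries already known. Their levels, and whether they passed the test over all genes, are therefore given as a description, and their exact p-values are not printed. Poly(A) RNA of the piriform cortex, the main olfactory cortex, of Gad2-Cre mice was sequenced in bulk; their Cre recombinase is made in cells that use Gad2, an enzyme of GABA synthesis. The Caspase3 group (3 libraries) had received AAV-DIO-Caspase3, an adeno-associated virus whose caspase 3, an executor of apoptosis, is expressed after Cre recombination. The GFP group (3 libraries) had received AAV-DIO-GFP in the same way, so both groups carried the Cre allele, a viral vector and an injection into the piriform cortex of 1 side. The labels give neither an uninjected group, the age of the mice, the interval after injection nor the hemisphere sampled, and they do not say that libraries came from separate animals. Errors and p-values therefore cover the spread among the 6 libraries, part of which may be technical.

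Oligoadenylate synthetases bind long RNA duplexes and join ATP into short oligoadenylate chains, which act as a second messenger in the infected cell. PKR binds the same kind of RNA and phosphorylates the initiation factor eIF2alpha, which lowers translation. Both arms are antiviral, and in many tissues, brain included, their genes are induced by interferon through response elements at the promoter that a complex holding Stat2 and Irf9 binds.

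The promoter sequences are shown because 8 of the 9 members were higher together in the Caspase3 group, as described further on. RefSeq windows (GRCm38.p6) that run from 250 bases before to 50 bases after the gene start were found for 7 of the 9 genes, all but Oas1b and Oas2. They were searched on both strands for the core of the interferon-stimulated response element, spelled GAAA, then any 2 bases (NN), then GAAA. This motif stood in 5 of the 7 windows, against 1131 of 32851 RefSeq mouse windows (3.44%) and 441 of the 11658 tested genes that have a window (3.78%). It also stood in 58 of the 192 genes called higher in the Caspase3 group that have a window (30.2%) and in 11 of 20 interferon ligand genes (55.0%). Most genes of the ligand list are of the Ifna family. Their windows were not compared with each other, so these 11 may not be separate occurrences. The 5 windows of members include that of Oas1c, the member not called higher. They also include those of Oas1a and Oas1g, which are alike (88.8% of aligned bases identical) and so are not separate occurrences. In the lines that follow the capitals mark the match, and 16 capitals hold 2 overlapping matches. Each sequence reads along the gene's own strand, apart from the second one of Oas1c.
Oas1a, chr5:120907505-120907570, minus strand: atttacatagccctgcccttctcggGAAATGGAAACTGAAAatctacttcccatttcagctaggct
Oas1g, chr5:120887591-120887656, minus strand: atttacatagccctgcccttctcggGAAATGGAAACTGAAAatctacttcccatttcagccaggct
Oas1c, chr5:120812588-120812653, minus strand: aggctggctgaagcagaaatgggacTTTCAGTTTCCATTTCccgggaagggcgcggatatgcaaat
Oas1c window, opposite (plus) strand: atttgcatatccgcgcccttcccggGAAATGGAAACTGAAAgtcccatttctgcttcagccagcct
Oas3, chr5:120777700-120777759, minus strand: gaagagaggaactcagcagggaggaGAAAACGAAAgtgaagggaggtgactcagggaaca
Eif2ak2, chr17:78882523-78882579, minus strand: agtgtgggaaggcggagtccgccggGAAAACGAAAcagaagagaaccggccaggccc

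Oas1a, Oas1g and the opposite strand of Oas1c held the same 16 capital letters. They lay 20 to 5 bases before the start of Oas1a and 18 to 3 bases before the start of Oas1g, while in the window of Oas1c they lay 114 to 99 bases before its start and read on the other strand. Oas1b starts on that other strand, at base 120812635 in the deposited annotation, so that the same capitals lay 22 to 7 bases before it. The windows of Oas1a and Oas1g were identical at 261 of 294 aligned bases (88.8%). Oas3 and Eif2ak2 shared the 10 letters GAAAACGAAA, which lay 75 to 66 bases before the start of Oas3 and 18 to 27 bases after the start of Eif2ak2. The letters were not in the windows of Oasl1 and Oasl2, which says nothing about other forms of the element or other distances. A match is a description of the letters and was not tested as a binding site.

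**Figure D1:**
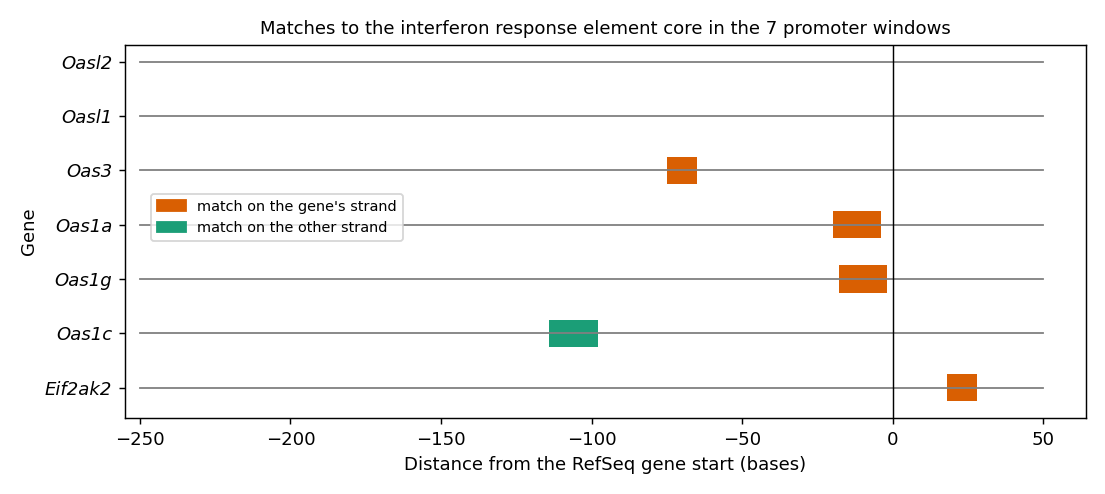
Position of each match to the response element core relative to the gene start (bases, 0 at the start) in the RefSeq windows of the 7 members that have one, with the strand of the match marked. Matches stand in 5 windows, just before the start in Oas1a and Oas1g, farther upstream in Oas3 and Oas1c, and after the start in Eif2ak2.

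The genes lie in 3 places of the mouse genome (deposited GRCm38 coordinates). Oas2, Oas3, Oas1c, Oas1b, Oas1g and Oas1a stand in this order within 177189 bases of chromosome 5, and Oas1c and Oas1b point away from each other with 120 bases between them. Oasl2 and Oasl1 lie next to each other within 40980 bases of the same chromosome, and Eif2ak2 is on chromosome 17. The copies in the cluster are alike enough to affect counting. The longest transcripts of Oas1a and Oas1g were 97.5% identical over 1860 aligned bases, against 70.4% to 76.9% for the other pairs among Oas1a, Oas1b, Oas1c and Oas1g and 59.1% for Oasl1 and Oasl2. Of the 50-base windows of the Oas1a transcript, 57.6% occur unchanged in Oas1g, and of those of Oas1g 54.1% occur in Oas1a. Of the windows of Oas1c, 10.7% occur in another transcript of the family, with the largest part in Oas1e (6.65%). The sources used here do not say how reads that match several genes were assigned. The separate counts of Oas1a and Oas1g are therefore uncertain, and those of Oas1c to a lesser degree.

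Among the 9 genes, 8 were higher in the Caspase3 group at an adjusted p under 0.05 in edgeR's quasi-likelihood test over all genes, all but Oas1c, and none was lower. The same test called 255 of the 16721 genes tested higher in the Caspase3 group (1.53%) and 19 lower (0.114%). For all 9 genes, and for 1496 of the genes tested (8.95%), the lowest Caspase3 library lay above the highest GFP library. Because these values chose the genes, the counts are a description. The median log2 fold change of the 9 was 4.19, beside -0.00114 for all genes tested. Of the 9, 5 (Oas1a, Oas1b, Oas1g, Oas3 and Oasl1) passed the filter on low counts only through the Caspase3 libraries. CPM here is a read count scaled to the total of its library times a TMM factor, and 3 counts correspond to 0.118 to 0.142 CPM.

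**Figure D2:**
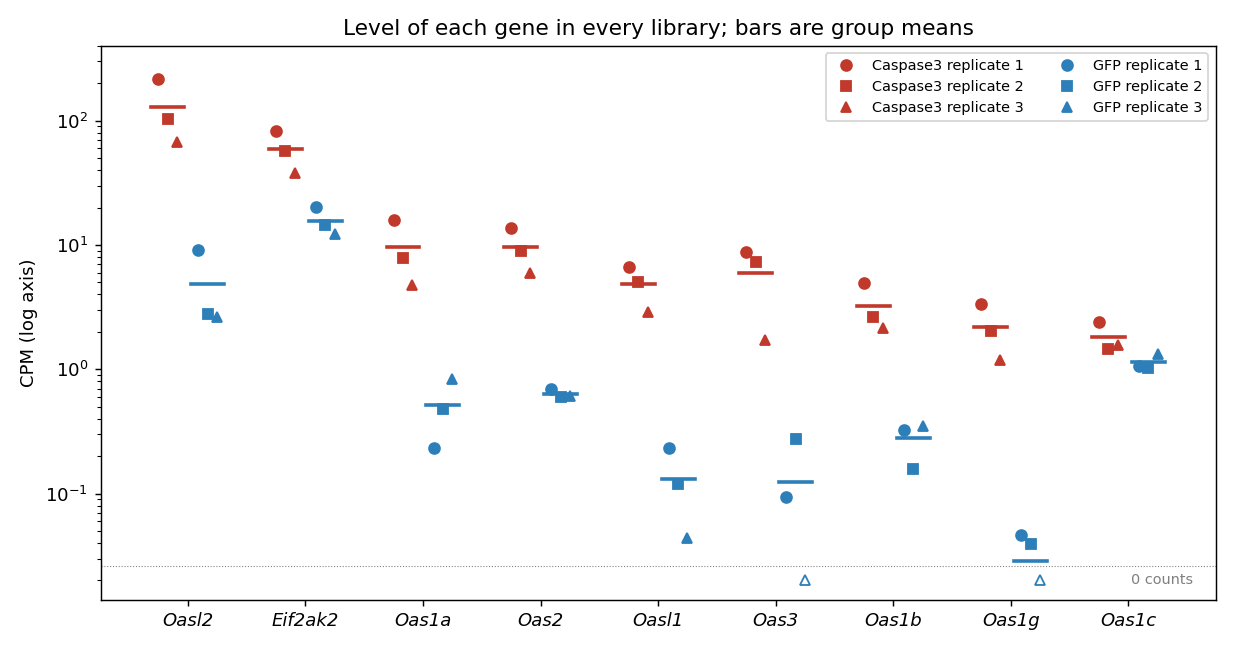
CPM (log axis) of each of the 9 genes in every library, Caspase3 libraries left of GFP libraries, with the group means as bars and libraries with 0 counts as open symbols under the dotted line. For each gene the 3 Caspase3 points lie above the 3 GFP points, widely for most and narrowly for Oas1c.

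Oas1a and Oas1g encode synthetases that make oligoadenylates in the mouse. Oas1a (ENSMUSG00000052776, chromosome 5, 120896256 to 120907521) stood at 16.0, 7.90 and 4.77 CPM in Caspase3 libraries 1, 2 and 3, against 0.233, 0.475 and 0.833 CPM in GFP libraries 1, 2 and 3. Caspase3 library 1 was the highest, and the lowest Caspase3 library was 5.72 times the highest GFP library. The means were 9.57 ± 5.82 CPM in the Caspase3 group and 0.514 ± 0.302 CPM in the GFP group (SD, n = 3 each), a log2 fold change of 4.19 ± 0.54 (SE), or 18.3-fold. Without Caspase3 library 1 the log2 fold change was 3.60.

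Oas1g had 3.36, 2.04 and 1.18 CPM in the Caspase3 libraries, against 0.0465, 0.0396 and 0 CPM in the GFP libraries. In reads these were 146 over the Caspase3 group and 2 over the GFP group. GFP library 3 had none, and the other two had 1 read each, below the floor of 3 counts. The ratio of the summed counts, scaled by library size, was 74.1, with a 95% exact interval of 20.1 to 617.6 that covers counting error only. Reads of Oas1a may have been counted for Oas1g and the reverse, and the ratio carries that uncertainty as well.

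Oas1b lies in the same cluster and is known as the flavivirus resistance gene of the mouse, which many laboratory strains carry in a truncated form. The annotation names it a polymorphic pseudogene, and the strain of these mice is not given in the labels. It stood at 4.97, 2.63 and 2.17 CPM in the Caspase3 libraries, against 0.326, 0.158 and 0.351 CPM in the GFP libraries. All 3 Caspase3 libraries were above all GFP libraries, the closest pair being 6.17-fold apart. The means of 3.26 ± 1.50 CPM in the Caspase3 group and 0.278 ± 0.105 CPM in the GFP group (SD, n = 3 each) gave a log2 fold change of 3.54 ± 0.45 (SE), or 11.6-fold.

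Oas1c, which starts 120 bases from Oas1b on the other strand, was the exception. It had 2.41, 1.45 and 1.58 CPM in the Caspase3 libraries, against 1.07, 1.03 and 1.32 CPM in the GFP libraries. The groups did not overlap, but the lowest Caspase3 library was only 1.10 times the highest GFP library. The mean was 1.81 ± 0.522 CPM in the Caspase3 group and 1.14 ± 0.155 CPM in the GFP group (SD, n = 3 each), a log2 fold change of 0.67 ± 0.29 (SE). This value did not pass the test over all genes, in edgeR with the filter or in any of the 16 alternatives tried. An exon of Oas1c shares 227 bases, 9.44% of its exon bases, with Gm43069 on the opposite strand. That neighbour had 1 count in all 6 libraries together.

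Oas2 and Oas3 encode the larger synthetases, built of repeated synthetase units. Oas2 stood at 13.8, 8.90 and 5.99 CPM in the Caspase3 libraries, against 0.698, 0.593 and 0.614 CPM in the GFP libraries. The mean was 9.55 ± 3.93 CPM in the Caspase3 group and 0.635 ± 0.0555 CPM in the GFP group (SD, n = 3 each), whose libraries were close to each other. The log2 fold change was 3.90 ± 0.34 (SE), or 14.9-fold, and the lowest Caspase3 library was 8.58 times the highest GFP library.

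Oas3, whose product responds to long RNA duplexes, was the member whose Caspase3 libraries differed most. It had 8.75, 7.27 and 1.73 CPM in the Caspase3 libraries, against 0.0931, 0.277 and 0 CPM in the GFP libraries. Caspase3 library 3 was 5.05-fold below Caspase3 library 1 and still 6.26-fold above the highest GFP library. The summed reads were 389 in the Caspase3 group and 9 in the GFP group, a scaled ratio of 43.9 with an exact 95% interval of 22.9 to 96.7 for counting error. The log2 fold change was 5.46 ± 0.82 (SE), the largest standard error of the 9. It fell short of the threshold without GFP library 1 and without GFP library 2, when it was 5.30 and 6.86, as it did with limma-voom and with limma on log2(FPKM + 1).

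The products of Oasl1 and Oasl2 carry ubiquitin-like repeats after the synthetase-like part. In the mouse Oasl1 restrains the translation of Irf7 and Oasl2 makes oligoadenylates. Oasl1 stood at 6.67, 4.996 and 2.91 CPM in the Caspase3 libraries, against 0.233, 0.119 and 0.0439 CPM in the GFP libraries. The lowest Caspase3 library was 12.5 times the highest GFP library, although the GFP values rest on 9 reads in all against 325 in the Caspase3 group. The scaled ratio was 36.7 with an exact 95% interval of 19.1 to 80.9 for counting error, and the log2 fold change was 5.17 ± 0.50 (SE), and 5.78 without GFP library 1.

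Oasl2 (ENSMUSG00000029561, chromosome 5, 114896936 to 114912234) was the most abundant of the family in the Caspase3 libraries. It had 215.2, 103.0 and 67.6 CPM in the Caspase3 libraries, against 9.12, 2.81 and 2.63 CPM in the GFP libraries. GFP library 1 stood above the other two GFP libraries, as Caspase3 library 1 did in its group, and the closest libraries of the groups were 7.41-fold apart. With 8532 reads in the Caspase3 group and 327 in the GFP group, it is the synthetase gene with the deepest counts. The means of 129 ± 77.1 CPM in the Caspase3 group and 4.85 ± 3.70 CPM in the GFP group (SD, n = 3 each) gave a log2 fold change of 4.74 ± 0.57 (SE), or 26.8-fold. The log2 fold change was 5.56 without GFP library 1 and 4.15 without Caspase3 library 1.

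Eif2ak2 (ENSMUSG00000024079, chromosome 17, 78852564 to 78882573), the PKR gene, was read in every library and changed least among the 8 that passed. It stood at 82.8, 57.3 and 37.9 CPM in the Caspase3 libraries, against 20.2, 14.6 and 12.4 CPM in the GFP libraries. Library 1 was the highest and library 3 the lowest in each group, the groups did not overlap, and the lowest Caspase3 library was 1.88 times the highest GFP library. The means were 59.3 ± 22.5 CPM in the Caspase3 group and 15.7 ± 4.04 CPM in the GFP group (SD, n = 3 each), a log2 fold change of 1.92 ± 0.28 (SE), or 3.78-fold. Of its exon bases 3.40% are shared with Gm26637 on the opposite strand, which had 11 to 23 counts in the Caspase3 libraries and 2 to 11 in the GFP libraries, against 3974 and 1084 counts of Eif2ak2 in the 2 groups.

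Ranked by log2 fold change among the 255 genes called higher, Oas1g was at place 6, Oas3 at 11, Oasl1 at 13, Oasl2 at 18, Oas1a at 32, Oas2 at 42, Oas1b at 56 and Eif2ak2 at 124. The 3 genes at the front are those with the fewest GFP reads, where the fitted value depends on how a count near 0 is treated. With limma on log2(FPKM + 1), which shrinks low genes, their log2 fold changes were 0.90 for Oas1g, 0.80 for Oas3 and 1.41 for Oasl1, and Oasl2 at 3.47 was ahead of them.

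Levels of different genes are comparable only per length, for which the deposited FPKM (counts scaled by gene length and library) were used. That length covers all exon bases of a gene, which can exceed any transcript. It is 6374 bases for Oasl2 and 7069 for Oas3, whose longest transcripts have 3123 and 4720 bases. The order, its gaps and the shares of summed FPKM below depend on this choice, and levels per transcript length were not computed. Oasl2 was the highest of the 9 in the Caspase3 group, at 20.0 ± 11.8 FPKM against 0.761 ± 0.579 FPKM in the GFP group (SD, n = 3 each). Eif2ak2 came next in the Caspase3 group, at 11.5 ± 4.30 FPKM against 3.07 ± 0.789 FPKM in the GFP group, where it was the highest of the 9. In the Caspase3 group Oas1a followed, at 5.02 ± 3.02 FPKM, against 0.272 ± 0.159 FPKM in the GFP group. Behind these came Oas2 at 2.13 ± 0.861 FPKM, Oasl1 at 1.85 ± 0.706 FPKM and Oas1b at 1.62 ± 0.734 FPKM in the Caspase3 group, against 0.143 ± 0.0122, 0.0506 ± 0.0364 and 0.140 ± 0.0520 FPKM in the GFP group. The lowest in the Caspase3 group were Oas1g at 0.929 ± 0.458 FPKM, Oas3 at 0.829 ± 0.517 FPKM and Oas1c at 0.747 ± 0.209 FPKM, against 0.0123 ± 0.0107, 0.0175 ± 0.0201 and 0.473 ± 0.0625 FPKM in the GFP group. Oas1c was thus at place 9 of 9 in the Caspase3 group and at place 3 in the GFP group. Neighbours in the order of the Caspase3 group, Oasl2 and Eif2ak2 included, differed by less than the larger SD of the pair, with the exception of Eif2ak2 over Oas1a. In the GFP group the exceptions were Eif2ak2 over Oasl2, Oas1c over Oas1a and Oas1b over Oasl1.

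The summed FPKM of the 8 synthetase genes was 53.2, 28.1 and 18.0 in Caspase3 libraries 1, 2 and 3, against 2.44, 1.44 and 1.73 in GFP libraries 1, 2 and 3. The sum in each Caspase3 library was above that in each GFP library. Of this sum Oasl2 made up 62.4%, 57.5% and 58.6% in the Caspase3 libraries, against 58.6%, 30.7% and 23.8% in the GFP libraries, so that the groups overlapped and the Caspase3 libraries were the more alike. Oas1c made up 1.85%, 2.15% and 3.62% in the Caspase3 libraries, against 18.2%, 29.8% and 31.6% in the GFP libraries. The groups did not overlap in that share, the GFP libraries being the higher ones. The level of Oas1c itself was not lower in the Caspase3 group (0.747 FPKM, against 0.473 FPKM in the GFP group). Its smaller share there restates the larger fold changes of the other genes in the sum. Oas1a held shares that overlapped between the groups, 14.9 ± 0.880% in the Caspase3 group and 16.0 ± 10.3% in the GFP group (SD, n = 3 each). Oas1g held 2.85 ± 0.234% in the Caspase3 group and 0.664 ± 0.603% in the GFP group (SD, n = 3 each). The GFP shares rest on few reads for each gene other than Oasl2.

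**Figure D3:**
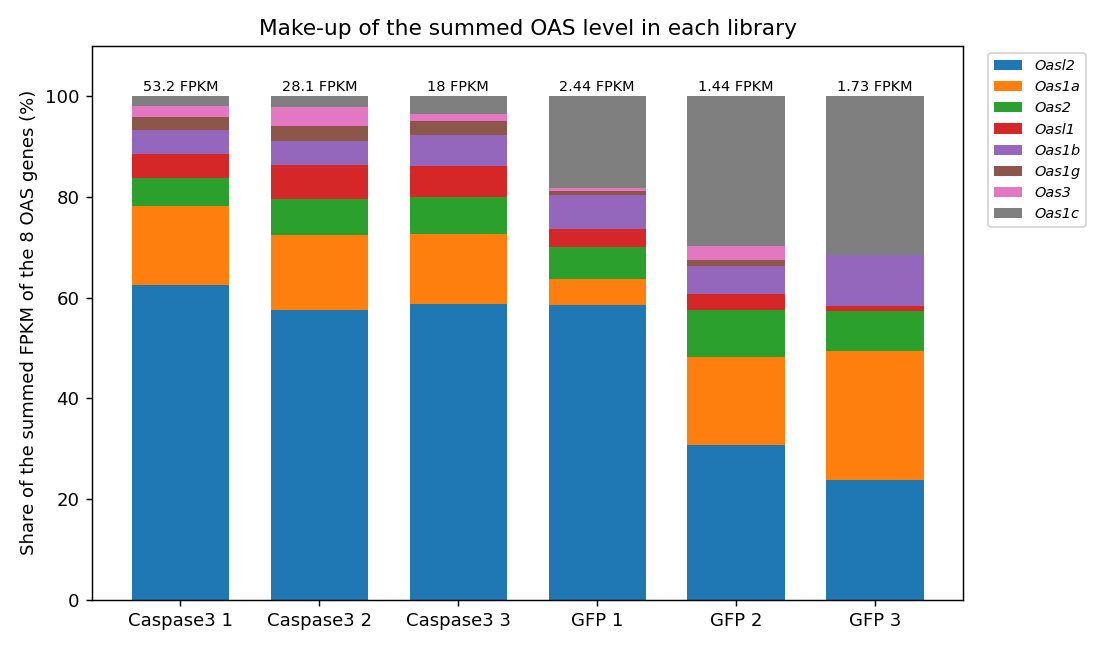
Share (%) of each synthetase gene in the summed FPKM of the 8 genes, for each library, Caspase3 libraries left of GFP libraries, with the summed FPKM above each bar. Oasl2 takes 57.5% to 62.4% in the Caspase3 libraries, and Oas1c takes 18.2% to 31.6% in the GFP libraries.

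Within the Caspase3 group the genes ran in nearly the same order of libraries. Library 1 was the highest for 9 of 9 genes and library 3 the lowest for 8 of 9, Oas1c having its lowest value in library 2. The ratio of the highest to the lowest Caspase3 library was 1.66 for Oas1c, between 2.19 and 3.37 for the 7 other genes and 5.05 for Oas3. In the GFP group the highest library was library 1 for 5 genes, library 3 for 3 and library 2 for 1. Genes of this kind of profile are common among those called higher: of the 255, 229 (89.8%) were highest in Caspase3 library 1 and 186 (72.9%) lowest in Caspase3 library 3, against 42.5% and 27.4% of all genes tested.

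The profile over the 6 libraries was compared by the root mean square difference of log2 CPM, centred on each gene's mean, from the mean profile of the 9. Candidates were the 13163 other named genes that averaged 1 CPM or more. The profile holds the difference between the groups, which was known when the members were chosen, so a small distance largely means a fold change of like size. The 5 nearest genes had log2 fold changes of 3.58 to 4.39, and their nearness is a description. The nearest were Rtp4, a chaperone of chemosensory receptors, at 0.150, Ifit3 at 0.180, Ccl12, a chemokine, at 0.185, Ifit1 at 0.214, and H2-Q7, a nonclassical class I histocompatibility gene, at 0.221. Ifit1 and Ifit3 encode interferon-induced antiviral proteins. Rtp4 had 32.1, 16.5 and 11.0 CPM in the Caspase3 libraries, against 1.77, 1.23 and 1.10 CPM in the GFP libraries, which is the same order of libraries in the Caspase3 group as in all members but Oas1c. Among the members Oas2 was nearest to their mean profile (0.197), and Oas1c (1.68), Oas3 (1.38) and Eif2ak2 (1.01) were farthest.

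**Figure D4:**
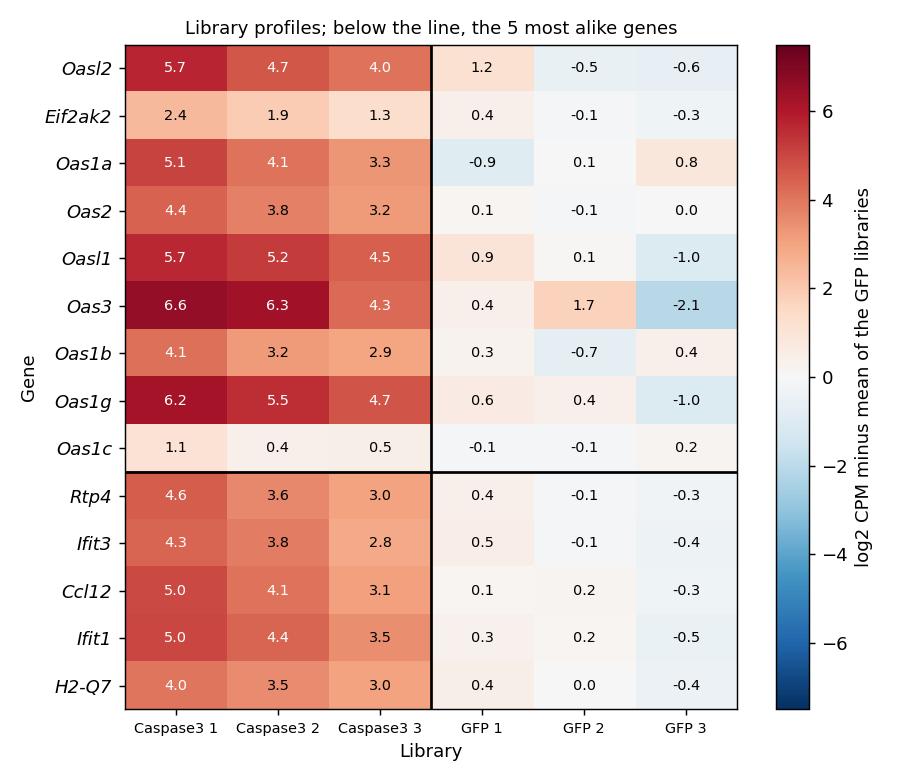
Log2 CPM minus the mean of the GFP libraries (colour and printed value) for the 9 members and, below the line, the 5 genes nearest to their mean profile, in each library. The Caspase3 columns are positive for every gene shown, with the palest rows in Oas1c and Eif2ak2, and the GFP columns spread on both sides of 0, most widely for Oas3 (-2.06 to 1.70).

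The tissue and libraries give the setting of these values. Gad2 stood at 26.7, 38.5 and 38.0 CPM in the Caspase3 libraries, against 92.3, 117.9 and 103.5 CPM in the GFP libraries, and fell by 1.60 ± 0.15 on the log2 scale (edgeR adjusted p = 0.00371). Total counts were 20424581 to 24227361 in the Caspase3 libraries and 22101015 to 26268377 in the GFP libraries. Markers of excitatory cortical neurons summed to 6291 to 7171 CPM in the Caspase3 libraries and 6546 to 8248 CPM in the GFP libraries. The GABAergic markers, of which Gad2 passed, summed to 382.5 to 567.1 CPM in the Caspase3 libraries and 676.8 to 955.2 CPM in the GFP libraries. The striatal neuron markers stood at 126.3 to 151.6 CPM in the Caspase3 libraries, against 140.3 to 836.1 CPM in the GFP libraries, where GFP library 3 was the high one. The microglia markers summed to 623.3, 494.9 and 465.4 CPM in the Caspase3 libraries, against 374.6, 316.6 and 316.5 CPM in the GFP libraries. Of the 8, 4 passed the test, higher in the Caspase3 group. Their sums in the Caspase3 libraries were in the order that all members but Oas1c had. The sums of the T and NK cell, astrocyte and endothelial markers were in that order too, so the order is not particular to microglia. The 10 T and NK cell markers summed to 3.94 to 8.19 CPM in the Caspase3 libraries and 0.910 to 4.61 CPM in the GFP libraries. The highest GFP sum was that of GFP library 3, where Cd4 alone had 4.12 CPM. Only 4 of the 10 genes had enough counts to be tested, and 3 of them were higher, beside 1.53% of all genes tested. Those 3 passed the filter on low counts only through the Caspase3 libraries, so the share is a description and no support. Monocyte, macrophage and neutrophil markers summed to 39.2 to 80.0 CPM in the Caspase3 libraries and 19.2 to 35.9 CPM in the GFP libraries, with 1 of 5 tested genes higher. B cell markers summed to 0.0454 to 0.284 CPM in the Caspase3 libraries and 0.0791 to 0.395 CPM in the GFP libraries. The astrocyte markers summed to 7176 to 9556 CPM in the Caspase3 libraries and 8143 to 10210 CPM in the GFP libraries. Of these 5 Gfap passed, at 584.5, 386.3 and 447.0 CPM in the Caspase3 libraries, against 235.8, 158.6 and 178.7 CPM in the GFP libraries. The oligodendrocyte markers summed to 11804, 8234 and 8356 CPM in the Caspase3 libraries, against 8132, 7152 and 8429 CPM in the GFP libraries, and none passed. Caspase3 library 1, the highest library for all 9 members, thus stood apart in them. The endothelial markers summed to 274.6 to 322.6 CPM in the Caspase3 libraries and 253.7 to 338.0 CPM in the GFP libraries. In bulk RNA more cells of a type and more RNA per cell cannot be told apart, and the part of these cell types in the members' differences was not tested.

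The partners of the synthetases on their pathway did not pass the test. Of the 8 other genes of the family and of oligoadenylate turnover, 4 were tested (median log2 fold change -0.02), and none passed in edgeR, by an unadjusted p under 0.05, with DESeq2 or with limma-voom. The most abundant of them, Abce1, a ribosome recycling factor, had 126 ± 17.4 CPM in the Caspase3 group and 137 ± 6.31 CPM in the GFP group (SD, n = 3 each; log2 fold change -0.12 ± 0.11). The remaining Oas1 genes were hardly read. Oas1d and Oas1f had 0 counts in all 6 libraries, which allows up to 3 counts in each. Oas1h had 3, 4 and 0 counts in the Caspase3 libraries, against 0, 0 and 0 in the GFP libraries, and Oas1e had 0, 0 and 0 counts in the Caspase3 libraries, against 0, 4 and 1 in the GFP libraries.

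On the PKR arm the genes tested beside the kinase did not pass either. Of 8 tested activators and inhibitors of PKR none passed in edgeR, DESeq2 or limma-voom (median log2 fold change 0.03). Dnajc3 alone, the PKR inhibitor p58IPK, had an unadjusted p under 0.05, at 135 ± 7.47 CPM in the Caspase3 group and 108 ± 9.93 CPM in the GFP group (SD, n = 3 each; log2 fold change 0.31 ± 0.10, edgeR adjusted p = 0.252). Adarb1, an editing enzyme of RNA duplexes and the most abundant of the list, stood at 341 ± 60.0 CPM in the Caspase3 group and 373 ± 6.66 CPM in the GFP group (SD, n = 3 each). Its log2 fold change was -0.13 ± 0.13 (SE). Adar, which edits RNA duplexes and so limits what PKR binds, had 125 ± 2.04 CPM in the Caspase3 group and 108 ± 9.64 CPM in the GFP group (SD, n = 3 each; log2 fold change 0.20 ± 0.09, edgeR adjusted p = 0.493).

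Of 13 tested genes for eIF2, its exchange factor, the other eIF2alpha kinases and the phosphatase subunits, none passed in edgeR, by an unadjusted p, with DESeq2 or with limma-voom. Their median log2 fold change was 0.0040. The most abundant, Ppp1r15b, a regulatory subunit of the eIF2alpha phosphatase, had 124 ± 9.35 CPM in the Caspase3 group and 121 ± 5.07 CPM in the GFP group (SD, n = 3 each). Of 13 tested target genes of the integrated stress response, the transcription programme that follows phosphorylation of eIF2alpha, none passed in edgeR, DESeq2 or limma-voom. The median was 0.15, and 2 of them, Atf5 and Slc7a11, had an unadjusted p under 0.05 and passed in edgeR with no filter on low counts, though not with DESeq2, limma-voom or the replicate number as a block. Psat1, an enzyme of serine synthesis and the most abundant of these, stood at 232 ± 41.1 CPM in the Caspase3 group and 214 ± 11.9 CPM in the GFP group (SD, n = 3 each). Atf4, the transcription factor of the programme, had 79.4 ± 9.95 CPM in the Caspase3 group and 82.6 ± 11.4 CPM in the GFP group (SD, n = 3 each; log2 fold change -0.06 ± 0.13). The activity of the synthetases and the phosphorylation of PKR or eIF2alpha are not read by RNA levels.

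The genes that sense RNA duplexes and carry the interferon signal passed in part. Of 14 tested, 7 were higher in the Caspase3 group and none lower in edgeR, a share to be read beside 1.53% and 0.114% of all genes tested, with a median log2 fold change of 1.002. Irf7, the interferon regulatory factor whose translation Oasl1 restrains, had 48.2, 25.6 and 13.9 CPM in the Caspase3 libraries, against 1.95, 1.46 and 1.67 CPM in the GFP libraries. Caspase3 library 1 was the highest and library 3 the lowest, as for 8 of the 9 members, and the log2 fold change was 4.11 ± 0.44 (SE; edgeR adjusted p = 0.00405). Irf9 stood at 36.7 ± 16.1 CPM in the Caspase3 group and 7.54 ± 1.25 CPM in the GFP group (SD, n = 3 each), 4.87-fold higher (edgeR adjusted p = 0.00569). Irf9 and Stat2 encode parts of the complex that binds the response element.

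Among the genes that passed were also Stat2, Ifih1, Ddx58 and Dhx58, which are named after their values were seen. Stat2 was 2.63-fold higher, the RNA sensors Ifih1 (MDA5) and Ddx58 (RIG-I) were 4.80-fold and 5.58-fold higher, and Dhx58 (LGP2), which modulates both, was 6.92-fold higher in the Caspase3 group. Their edgeR adjusted p-values were 0.00621 for Stat2, 0.00643 for Ifih1, 0.00699 for Ddx58 and 0.0295 for Dhx58. Dhx58 passed in 10 of the 16 alternatives, the fewest of the 7, and its log2 fold change of 2.79 was 2.08 without Caspase3 library 1. It had 4.73 ± 3.30 CPM in the Caspase3 group and 0.676 ± 0.0928 CPM in the GFP group (SD, n = 3 each). Tlr3, the endosomal sensor of RNA duplexes, also named after its values were seen, stood at 55.0 ± 9.79 CPM in the Caspase3 group and 36.0 ± 6.82 CPM in the GFP group (SD, n = 3 each). Its log2 fold change of 0.61 ± 0.16 did not pass in edgeR (adjusted p = 0.159), though it did with DESeq2, with no filter and with the replicate number as a block. The response element core stood in the RefSeq windows of 3 of the 12 genes of this list that have one (25%), beside 3.78% of the tested genes that have one. In the list of eIF2 and its regulators, where no gene was called, it stood in 3 of 11 (27.3%). It stood in none of the windows of the lists for oligoadenylate turnover, PKR activators and inhibitors and stress response targets.

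**Figure D5:**
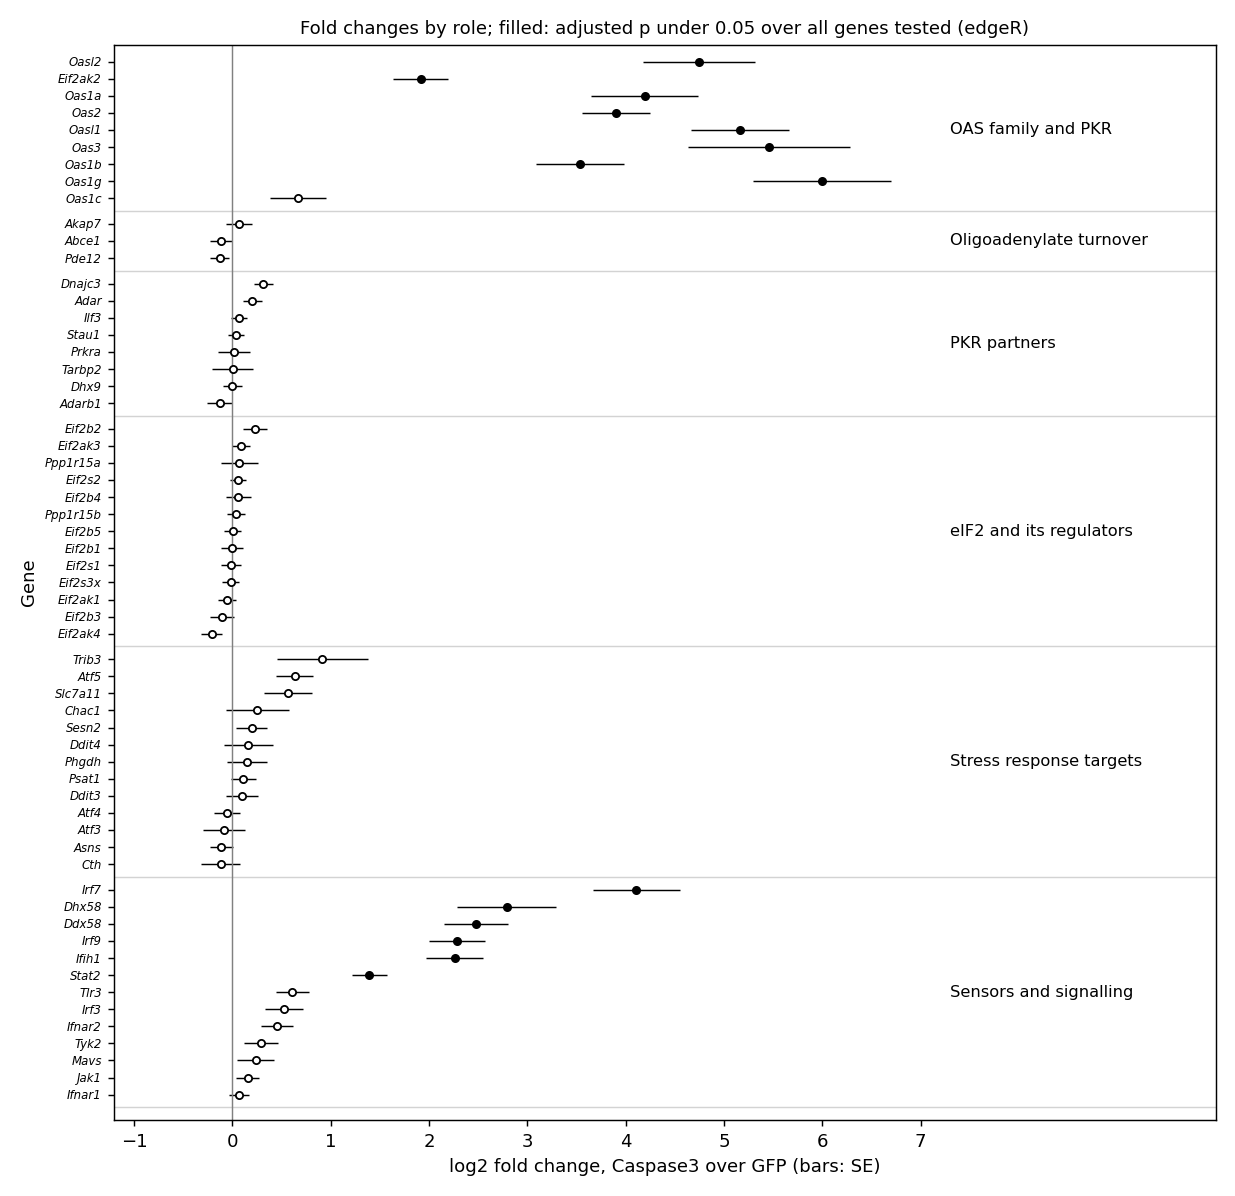
Log2 fold change (x axis, Caspase3 over GFP, edgeR) with its standard error (bars) for each of the 9 genes and for genes of the pathway lists, filled where the adjusted p was under 0.05. Filled points are 8 of the 9 members and, among the sensors and signal genes, Irf7, Irf9, Stat2, Ifih1, Ddx58 and Dhx58, while the genes drawn for oligoadenylate turnover, PKR partners, eIF2 and stress response targets are open.

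Interferon RNA itself was at the limit of detection. Of 21 interferon genes listed, 3 had any count: Ifnb1 1 count in Caspase3 library 1, Ifnk 1 count in Caspase3 library 2 and Ifna1 1 count in GFP library 1. None could be tested, and at this depth, where 3 counts are 0.118 to 0.142 CPM, a difference between the groups was not detectable.

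All of these calls rest on 3 libraries a group. Without GFP library 2, 2 of the 9 members (Oas2 and Oasl1) and none of the 7 sensors and signal genes kept an adjusted p under 0.05. In that fit 15 of the 17165 genes tested were called higher (0.0874%). No member's fold change changed sign there, which it could hardly do, as the groups did not overlap for any member. Without Caspase3 library 1 and GFP library 3 together, the libraries that stood highest in the members and in the striatal markers, 8 of the 9 members passed, where 260 of the 16831 genes tested were called higher (1.54%), with log2 fold changes of 4.51 for Oas3, 4.48 for Oasl1 and 3.87 for Oasl2.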

How the data were processed

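Poly(A) RNA, isolated with TRIzol, was made into libraries with a kit that marks the second cDNA strand, per the labels. The submitters' processing notes name HISAT2, featureCounts, DESeq2, mm10 and GRCm38 without roles, and the sources used here do not give the strand setting. The authors deposited whole-number read counts for 53715 genes and a separate table of FPKM, per the file headers. Within a library FPKM equalled count over length times a constant (within 1% for 100% of 20423 genes). The tables were joined by identifier. Groups and replicate numbers come from the labels.

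Counts were tested with edgeR 4.0.16 in R 4.3.3: filterByExpr (minimum count 10, minimum total 15), TMM, glmQLFTest on intercept and group, 16721 genes, Benjamini-Hochberg adjusted p under 0.05. The SE is the size of the log2 fold change over the square root of F. The script was tested on simulated data. Alternatives in edgeR were library totals, upper-quartile factors, DESeq2 size factors, no filter, a replicate block, and leaving out each library with the filter redone. Other tools were DESeq2 1.42.0, limma-voom, and limma 3.58.1 on log2(FPKM + 0.1) and log2(FPKM + 1). Leaving out Caspase3 replicate 1 with GFP replicate 3 was an alternative chosen after seeing the data. Libraries of 1 group differed beyond sampling noise (chi-square per gene 12.6 to 32.8). Intervals and floors cover counting error only.

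The members and the gene lists were chosen with earlier results of these data known, so no count over them is independent support. Named genes are the members, Gad2, the called genes of each list with the lowest adjusted p (at most 3, or the tested gene with the highest mean CPM where none was called), and the 5 genes nearest in profile. Oas1d, Oas1e, Oas1f, Oas1h, Dnajc3, Adar, Atf4, Atf5, Slc7a11, Stat2, Ifih1, Ddx58, Dhx58, Tlr3, Ifnb1, Ifnk, Ifna1 and Gfap were named outside that rule, after their values were seen. Some genes of the lists are counted but not reported here by name. Exon overlaps and transcripts are from GENCODE M21, promoter windows from RefSeq (GRCm38.p6), and alignments from Biopython 1.88. Protein sequences were not used here. Figures were drawn with Matplotlib 3.10.9.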

Additional observations from a re-analysis of the deposited data

How the results depend on the processing

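Over the 16 alternatives no member changed the sign of its log2 fold change, 135 of their values kept their side of the threshold and 9 lost it. The 274 calls became 913 with no filter on low counts, 505 with DESeq2, 170 with log2(FPKM + 1) and 421 with the replicate block, 337 without Caspase3 replicate 1 and GFP replicate 3, and 17 to 285 with 1 library left out. The 255 higher calls became 663 with no filter, 402 with DESeq2 and 160 with log2(FPKM + 1), 260 without Caspase3 replicate 1 and GFP replicate 3, and 15 to 252 with 1 library left out. The 19 lower calls became 250, 103 and 10 in the same fits, 43 with the replicate block, 77 without Caspase3 replicate 1 and GFP replicate 3, and 2 to 33 with 1 library left out. Single libraries moved these counts by over 1.5 times: 17 calls (15 higher, 2 lower) were left without GFP replicate 2 and 144 (131 higher) without GFP replicate 3, and there were 33 lower calls without Caspase3 replicate 1, against 7 without replicate 3 of that group.

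Of the 9 members 8 were called, and 2 to 8 with 1 library left out. The pathway lists had 7 calls, and 0 to 7 with 1 library left out, with 0 without GFP replicate 2. The cause of these losses was not tested. The members' median of 4.19 became 3.10 with log2(FPKM + 0.1) and 1.41 with log2(FPKM + 1), whose pseudocounts shrink low genes, and 3.60 to 4.50 with 1 library left out. The values that changed sign were near 0: Atf4 0.0054 with library totals, 0.0116 without Caspase3 replicate 2 and 0.00081 without GFP replicate 3 (range -0.168 to 0.0116), Ppp1r15b -0.0041 and -0.0037 without Caspase3 replicates 2 and 3 (range to 0.112), and Psat1 -0.0381 without Caspase3 replicate 1 and -0.0207 without it and GFP replicate 3 (range to 0.189).

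Deviations of same-numbered libraries correlated at 0.0642, 0.166 and 0.0212, so the numbers were not taken to pair the samples, and Caspase3 replicate 1 correlated best with GFP replicate 3. With the replicate block the members called stayed at 8. Depth limits Oas1g, Oas3 and Oasl1, with 2, 9 and 9 reads in the GFP group.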
